A study of Mus musculus with 2 samples.

Results

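The genes described here are 10 collagen chain genes of the mouse uterus, out of 32285 genes in the deposited count matrices: Col1a1, Col1a2, Col3a1, Col5a1, Col5a2, Col5a3, Col6a1, Col6a2, Col6a3 and Col14a1. They were chosen by symbol, as chains that make up or accompany the collagen fibrils of soft tissue, and all 10 symbols were found once each in the gene list. The working name of the set was fibrillar collagens, which holds for the type I, III and V chains only. Collagen VI forms beaded filaments and collagen XIV is a fibril-associated collagen, so the set is called the collagen chains here.

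Whole uteri were dissociated for 5 hours with collagenase, and single cells were captured with the 10x Genomics 3′ v3 chemistry, in which each captured transcript is tagged near its 3′ end with a unique molecular identifier (UMI). There were 2 libraries, each from a pool of 3 female C57BL/6J mice aged 6 months. The control library came from Prickle1 f/f mice, which carry a floxed allele of the planar cell polarity gene Prickle1, and the second library came from mice titled Prickle1 f/f MiC, the conditional knockout (cKO). MiC, the cells it acts in and what drives it are not explained by the labels, and both libraries are entered as wild-type in the genotype field; the series' title places the loss of Prickle1 in the myometrium, the smooth muscle wall of the uterus, and names extracellular matrix deposition as an outcome. With 1 pooled library per group there is no replicate, so no difference below carries a test, and the intervals given are 95% intervals that cover counting error only, not the spread between mice.

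Fibrillar collagens are made as procollagen chains that assemble into triple helices in the endoplasmic reticulum, are secreted, trimmed at both ends and cross-linked into fibrils. Type I collagen, built from Col1a1 and Col1a2 chains, is the main load-bearing fibril of most connective tissues, type III is mixed into the same fibrils in distensible organs such as the uterus and vessels, and type V sits inside fibrils and limits their width. Collagen VI, assembled from Col6a1, Col6a2 and chains such as Col6a3, forms a filament network around cells and fibrils. Collagen XIV binds the fibril surface. In the uterus these chains are made mainly by stromal fibroblasts, and the smooth muscle cells of the myometrium also lay down matrix.

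RefSeq promoter windows (GRCm38.p6, 250 bases before and 50 bases after the start site) were found for 7 of the 10 genes, in 8 windows. Col1a1, Col5a2 and Col14a1 had no entry. The windows of Col1a2 and Col3a1, whose levels were lower in several cell groups of the cKO library, are shown beside those of Col6a1 and Col6a2, whose levels moved the other way among all fibroblast-like cells. Each is written 5′ to 3′ on the gene's own strand, with CCAAT, or its reverse complement ATTGG, in capitals.
Col1a2, chr6:4505368-4505667, plus strand: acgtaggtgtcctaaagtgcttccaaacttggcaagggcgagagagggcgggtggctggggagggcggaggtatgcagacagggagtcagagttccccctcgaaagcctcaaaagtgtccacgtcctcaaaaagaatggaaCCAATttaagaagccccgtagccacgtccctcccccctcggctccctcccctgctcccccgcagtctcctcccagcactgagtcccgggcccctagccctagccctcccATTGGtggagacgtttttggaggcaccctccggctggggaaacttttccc
Col3a1, chr1:45311288-45311587, plus strand: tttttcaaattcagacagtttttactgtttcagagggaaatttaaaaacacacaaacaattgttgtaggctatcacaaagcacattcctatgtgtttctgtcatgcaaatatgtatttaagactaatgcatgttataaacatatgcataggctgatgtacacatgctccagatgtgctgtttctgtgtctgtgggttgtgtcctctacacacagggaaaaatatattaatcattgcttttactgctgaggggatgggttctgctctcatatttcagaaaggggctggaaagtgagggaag
Col6a1, chr10:76725995-76726294, minus strand: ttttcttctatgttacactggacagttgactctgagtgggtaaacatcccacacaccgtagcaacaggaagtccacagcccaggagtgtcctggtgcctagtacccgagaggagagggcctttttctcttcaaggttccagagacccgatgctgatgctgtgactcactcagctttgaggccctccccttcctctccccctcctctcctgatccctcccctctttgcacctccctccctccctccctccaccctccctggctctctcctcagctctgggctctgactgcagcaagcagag
Col6a2, chr10:76623355-76623654, minus strand, the first of 2 windows: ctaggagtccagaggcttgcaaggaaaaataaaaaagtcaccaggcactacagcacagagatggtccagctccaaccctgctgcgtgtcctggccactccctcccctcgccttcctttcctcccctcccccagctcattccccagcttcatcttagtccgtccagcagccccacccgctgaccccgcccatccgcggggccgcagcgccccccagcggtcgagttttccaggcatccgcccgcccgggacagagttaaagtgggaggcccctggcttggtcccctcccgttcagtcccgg
CCAAT was searched on both strands, as were TATAAA and GGGCGG, and no base of the 8 windows lay in matches of 2 of these motifs. CCAAT was found in 2 of the 8 windows, those of Col1a2 (the first match 109 bases before the start site) and Col5a3 (122 bases before it), against 37.4% of all 32851 promoter windows of the same length. TATAAA was found in 1 window, that of Col3a1, 117 bases before the start site, against 13.6% of all windows. GGGCGG was found in 5 of the 8 windows, against 35.7% of all windows. The G and C content ran from 37.7% in Col3a1 to 75% in Col5a1, and the median over all windows was 52.7%. These matches describe letters only.

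The genes lie on 7 chromosomes of GRCm38, by the GENCODE vM21 annotation. Col3a1 (chr1:45311538-45349706, plus strand) and Col5a2 (chr1:45374321-45503282, minus strand) are neighbours whose 3′ ends face each other 24614 bases apart. Col6a1 (chr10:76708792-76726168) and Col6a2 (chr10:76595762-76623630) lie on the minus strand of chromosome 10, 85161 bases apart. The others are Col1a1 (chr11:94936224-94953042, plus), Col1a2 (chr6:4504814-4541544, plus), Col5a1 (chr2:27886425-28039514, plus), Col5a3 (chr9:20770050-20815067, minus), Col6a3 (chr1:90765923-90843971, minus) and Col14a1 (chr15:55307750-55520803, plus). No other annotated gene overlapped the 3′ end of any of the 10, where the reads of this chemistry fall.

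The matrices held 45035801 UMIs in the control library and 34261441 in the cKO library. Cells were barcodes that reached 1000 UMIs and 500 genes with no more than 20% mitochondrial UMIs, which left 3490 and 3586 cells with medians of 4953 and 4903 UMIs, and 6 barcodes occurred in both. Prickle1 itself, the targeted gene, went against the labels over all cells. There were 96 UMIs (2.56 CPM, counts per 1000000 UMIs of the group) in the cells of the control library and 265 (9.03 CPM) in those of the cKO library. The part of the cell class mix in these values was not tested. In smooth muscle-like cells there were 14 UMIs (14.8 CPM) and 51 UMIs (24.3 CPM). Their ratio was 1.65 (0.90 to 3.22), an interval that includes no difference. In fibroblast-like cells the ratio was 2.06 (1.45 to 2.98). The labels do not give the deleted exons, and a 3′ tag outside them would not show the deletion. The groups are therefore called the library labelled control and the library labelled cKO; "under the control label" and "under the cKO label" mean in these libraries, and of 2 values side by side the control label comes first. Epithelium-like cells made up 37.6% of cells in the first and 3.01% in the second, fibroblast-like cells 24.3% and 37.4%, and smooth muscle-like cells 9.03% and 19.0%. Clusters were named from marker genes that include none of the 10 chains, though the fibroblast markers include the matrix genes Dcn, Lum and Dpt. The clustering left out the collagen genes and the folding, processing, receptor and regulator genes listed below. Other matrix genes, such as Eln, Tnc and Mmp3, were not left out, so the clusters are not independent of matrix expression.

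Nearly all collagen chain UMIs lay in fibroblast-like cells. The cells under the control label held 77956 UMIs of the 10 chains and those under the cKO label 135568, and fibroblast-like cells accounted for 93.2% (95% exact interval 93.0 to 93.4) and 95.3% (95.2 to 95.5) of them. By gene this share ran from 84.6% for Col5a2 to 96.1% for Col5a3 under the control label, and from 89.9% for Col5a2 to 96.9% for Col1a1 under the cKO label. Over all cells the summed level of the 10 chains was 2077 CPM under the control label and 4618 CPM under the cKO label, but within fibroblast-like cells it was 7604 and 8023 CPM. The share of fibroblast-like cells differed between the libraries in the same direction as the level over all cells, and its part in that level was not tested.

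Col5a2, a chain of the fibril-regulating collagen V, had the largest part of its UMIs outside the fibroblast-like cells: 4.20% of them lay in smooth muscle-like cells under the control label and 6.01% in those under the cKO label, and 4.77% and 0.0522% lay in epithelium-like cells. For the 10 chains together the smooth muscle-like share was 1.35% and 1.27%. Col14a1, the fibril-surface chain, was the one with the largest share in mesothelium-like cells, at 6.01% and 2.74%, where the 10 chains together had 1.79% and 0.718%. The chains thus shared their main source and differed in the minor ones.

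Outside fibroblast-like cells the summed levels covered a wide range, which the heat map of levels by class shows. Mesothelium-like cells held 1490.3 and 1739.5 CPM in the libraries labelled control and cKO, and smooth muscle-like cells 1114 and 821 CPM. Macrophage-like cells held 211 and 277 CPM, and lymphatic endothelium-like cells 52.2 and 172 CPM. Epithelium-like cells held 30.6 and 32.7 CPM, and cluster 15, which received no name, 19.3 and 20.2 CPM. Barcodes with at most 100 UMIs, taken as empty droplets, held 1139 and 2199 CPM. Collagen RNA was thus also counted outside cells in both libraries, at a higher level under the cKO label. Such free RNA was estimated to bring 10.1 and 40.4 CPM of the chains into cells. The epithelium-like and cluster 15 levels lay above that estimate under the control label and below it under the cKO label. After thinning every cell to 1000 UMIs, 87.6% and 89.7% of fibroblast-like cells had at least 1 collagen chain UMI, against 54.0% and 41.2% of smooth muscle-like cells. The same share was 7.10% and 10.7% in macrophage-like cells and 1.44% and 1.99% in cluster 15, whose low share serves as the background.

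**Figure D1:**
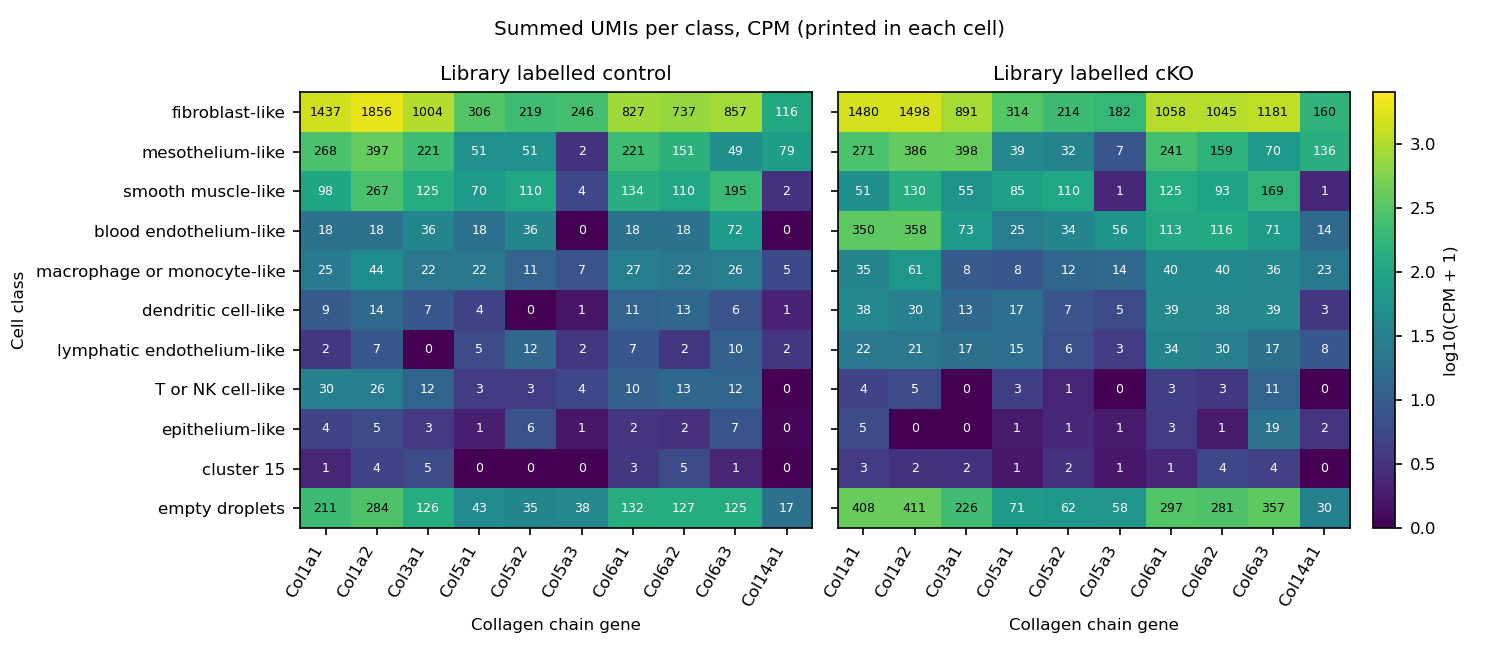
Heat map of the level of each collagen chain (columns) in each cell class (rows) of the 2 libraries, in CPM on a colour scale. Fibroblast-like cells stand above the other classes and the empty droplets for each of the 10 chains, with Col1a2 at 1856 CPM in the library labelled control and Col14a1 at 116 CPM the lowest of the 10 there.

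In most immune groups a handful of cells held most of these UMIs. In T or NK cell-like cells under the control label, 2 cells held 70 of 78 collagen chain UMIs, and both also had UMIs of at least 3 fibroblast markers. In dendritic cell-like cells 3 cells under the control label held 90 of 114 and 3 cells under the cKO label held 380 of 436, those 3 again with at least 3 fibroblast markers. Macrophage-like cells showed the same picture, with 84.5% of UMIs in 15 cells and 83.2% in 9 cells. Levels in these groups therefore describe those few cells. T or NK cell-like cells under the cKO label were the exception, with 47 UMIs in 411 cells, no cell with 10 or more, and a level of 30.3 CPM below the 40.4 CPM estimated for free RNA. In epithelium-like cells under the control label, Col5a2 stood out from the free RNA, with 118 UMIs in 71 cells, which was 20.4% of the 10 chains' UMIs there against 3.10% in empty droplets. Col6a3 made up 21.4% there against 11.0% in empty droplets.

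Among fibroblast-like cells as a whole, the type VI chains and Col14a1 were higher under the cKO label, Col1a2, Col3a1 and Col5a3 were lower, and Col1a1, Col5a1 and Col5a2 lay within 0.04 of no change on the log2 scale. Differences are log2 ratios, cKO label over control label, with 5 CPM added to each level, and their intervals are exact counting intervals of the ratio without that addition. None of the 10 passed a 1.5-fold difference in either direction, where 5.08% of the 7813 genes measured at 10 CPM or more passed it upward and 2.46% downward. The median over the 10 was 0.04, and that over all measured genes was 0.09. The summed level differed by 0.08 (0.06 to 0.09), and this value turned to -0.62 when each cell was thinned to the same 1000 UMIs.

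Type I and III chains, which build the load-bearing fibril, parted from each other. Col1a1 was at 1437 CPM (13732 UMIs) under the control label and 1480.4 CPM (23852 UMIs) under the cKO label, a log2 ratio of 0.04 (0.01 to 0.07) that turned to -0.037 with median-of-ratios scaling and to -0.88 with thinned cells. Its partner Col1a2 was at 1856 CPM (17733 UMIs) and 1498 CPM (24128 UMIs), a log2 ratio of -0.31 (-0.34 to -0.28), which was -0.99 with thinned cells. Col1a2 was thus the most abundant of the 10 under the control label, and nearly level with Col1a1 under the cKO label. Col3a1, the chain of the more extensible type III collagen, was at 1004 CPM (9590 UMIs) and 891 CPM (14362 UMIs), a log2 ratio of -0.17 (-0.21 to -0.13), which was 0.14 without cluster 8 and 0.15 without cluster 9 of the class. Because a 3′ UMI tags one end of a transcript, levels in CPM of different genes compare transcripts without a correction for length.

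The type V chains, which nucleate fibrils and limit their diameter, lay well below type I. Col5a1 was at 306 and 314 CPM in the libraries labelled control and cKO, a log2 ratio of 0.04 (-0.03 to 0.10). Col5a2 was at 219 and 214 CPM, a log2 ratio of -0.03 (-0.11 to 0.04). For neither did the libraries differ beyond counting error. Col5a3, a type V chain of narrower tissue distribution, was at 246 CPM (2352 UMIs) and 182 CPM (2937 UMIs), a log2 ratio of -0.42 (-0.51 to -0.35), the lowest of the 10.

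All 3 type VI chains were higher under the cKO label. Col6a1 was at 827 CPM (7900 UMIs) and 1058 CPM (17054 UMIs), a log2 ratio of 0.35 (0.32 to 0.40). Col6a2 was at 737 CPM (7042 UMIs) and 1045 CPM (16830 UMIs), a log2 ratio of 0.50 (0.46 to 0.54). Col6a3 was at 857 CPM (8190 UMIs) and 1181 CPM (19028 UMIs), a log2 ratio of 0.46 (0.43 to 0.50). In the library labelled control each type VI chain lay below Col3a1, and under the cKO label each lay above it. With cells thinned to 1000 UMIs the ratios turned to -0.18 for Col6a1, -0.24 for Col6a2 and -0.021 for Col6a3. Col14a1, which coats fibrils, was at 116 CPM (1113 UMIs) and 160.0 CPM (2578 UMIs), a log2 ratio of 0.44 (0.36 to 0.56), which was -0.19 without cluster 8.

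**Figure D2:**
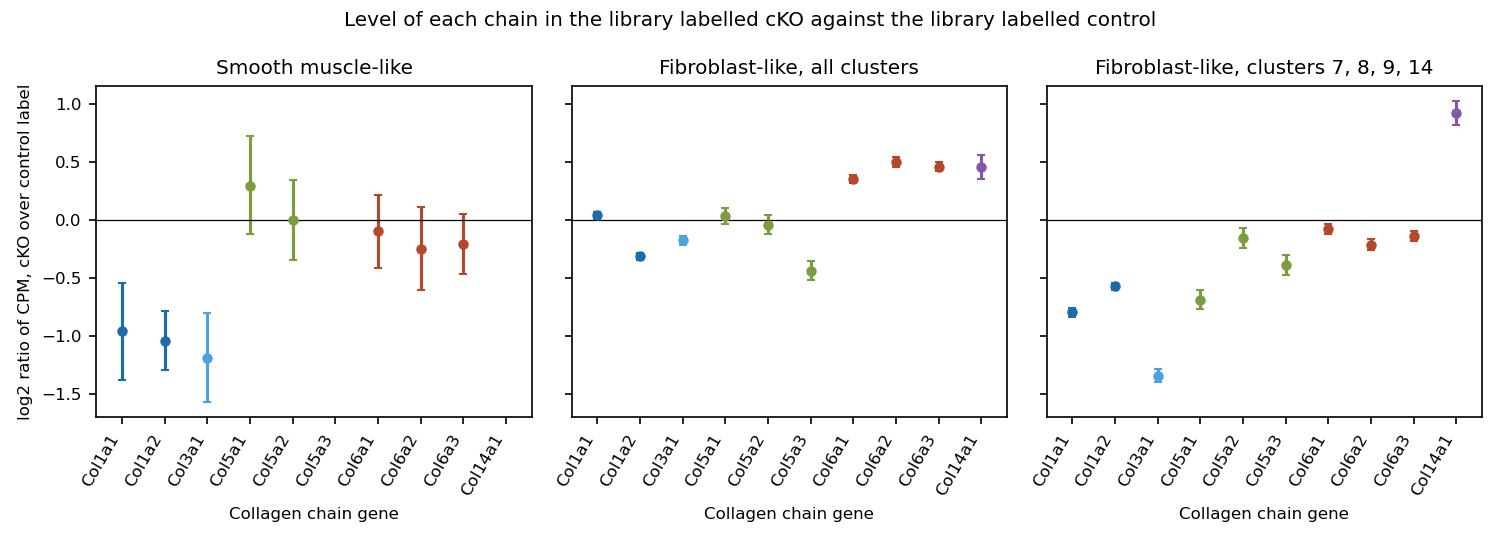
Log2 ratio of CPM, library labelled cKO over library labelled control, for each chain in smooth muscle-like cells, in all fibroblast-like cells and in fibroblast-like clusters 7, 8, 9 and 14. Points are plain ratios without the 5 CPM added in the text, bars are 95% counting intervals, colours mark the collagen type, and genes under 10 CPM are left out. Type I and III chains lie lowest in the smooth muscle-like panel, and Col14a1 lies highest in the last panel.

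The share of fibroblast-like cells with a UMI followed the levels for most chains. Col6a2 was found in 76.4% and 82.5% of cells in the libraries labelled control and cKO, and Col14a1 in 38.8% and 48.4%. Col1a2 went the other way, at 84.5% and 79.2%. With every cell thinned to 1000 UMIs, the shares were 40.9% and 43.7% for Col6a2, 9.07% and 13.3% for Col14a1, and 56.2% and 44.6% for Col1a2. Col3a1 was found in 58.1% and 59.0% of cells before thinning and in 35.2% and 29.1% after it, so the order of its share depended on depth. Median depths of fibroblast-like cells were 9434 and 10046 UMIs.

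The fibroblast-like class was not made of the same clusters in both libraries. Cluster 25, led by Dio2, Aldh1a2, Tnc, Crispld2 and A2m, had 17 cells under the control label and 226 under the cKO label, and cluster 19, led by Hsd11b2, Mfap4 and Dio2, had 6 and 77. Cluster 25 was rich in collagen RNA: it held 49.3% of the fibroblast-like collagen chain UMIs under the cKO label in 16.8% of that library's fibroblast-like cells, and 2.25% in 2.00% of them under the control label. A cluster with nearly all its cells in 1 of 2 unreplicated libraries cannot be told apart from that library. The 4 clusters with at least 20 cells in each library, 7, 8, 9 and 14, held 826 and 1039 cells.

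Over those 4 shared clusters pooled, the sign of the ratio differed from that in the whole class for 5 chains, Col1a1, Col5a1 and the 3 of type VI. The summed level was 7556 CPM under the control label and 5434 CPM under the cKO label, a log2 ratio of -0.48 (-0.49 to -0.46). Col3a1 was at 989 and 392 CPM, a log2 ratio of -1.33 (-1.39 to -1.28), and Col1a1 at 1451 and 837 CPM, a log2 ratio of -0.79 (-0.83 to -0.75). Col1a2 was at 1878 and 1266 CPM, a log2 ratio of -0.57, and Col5a1 at 303 and 189 CPM, a log2 ratio of -0.67. Thus 3 chains, Col1a1, Col3a1 and Col5a1, were past 1.5-fold lower, against 2.42% of the 7644 genes measured in these cells. The type VI chains, higher among all fibroblast-like cells, lay slightly lower here, with log2 ratios of -0.07 for Col6a1, -0.21 for Col6a2 and -0.13 for Col6a3. Col14a1 alone was past 1.5-fold higher, at 117 and 222 CPM, a log2 ratio of 0.90 (0.82 to 1.03), against 2.76% of genes. Col5a2 was at 219 and 197 CPM and Col5a3 at 248 and 189.7 CPM, log2 ratios of -0.15 and -0.38.

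The shared clusters did not move alike, as the plot of ratios by cluster shows. In cluster 7, led by Thbs2, Pdgfra, Mmp3, Eln and Dpt, the summed level was higher under the cKO label, at 7659 and 8944 CPM (log2 ratio 0.22), and so were the fibroblast markers (0.16). There 1 chain, Col14a1, was past 1.5-fold higher (60.8 and 139.7 CPM, 176 and 353 UMIs, log2 ratio 1.14) and none was past it lower, where 5.48% and 3.65% of genes were. Col3a1 was the lowest in cluster 7, with a log2 ratio of -0.18. In cluster 8, led by Ptx3, Has2 and Dpt, the summed level was 5884 and 4297 CPM (log2 ratio -0.45), and 4 chains were past 1.5-fold lower (3.27% of genes) and Col14a1 past it higher (4.61% of genes). The 4 were Col3a1 (716 and 319 CPM, log2 ratio -1.16), Col1a1 (-0.76), Col5a1 (-0.74) and Col5a3 (-0.73), and Col14a1 was at 141 and 266 CPM (0.89). Cells were deeper under the control label in both clusters, with medians of 14868 and 10892 UMIs in cluster 7 and 18891 and 12330 in cluster 8.

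Of the 4 shared clusters, cluster 9 had the lowest ratios for Col1a1 and Col3a1. It was led by Dpt, Mmp3, Mmp2, Igfbp3 and C1qtnf3 and had 256 and 254 cells in the 2 libraries, with medians of 8894.5 and 5801.5 UMIs. Col3a1 was at 1376 CPM (3489 UMIs) under the control label and 322 CPM (580 UMIs) under the cKO label, a log2 ratio of -2.08, and Col1a1 was at 1504 and 494 CPM, a log2 ratio of -1.60. Col1a2 followed at -1.14 and Col5a2 at -0.67, so 4 chains were past 1.5-fold lower and none higher, where 5.92% and 7.69% of genes were. The summed level of the 7 fibroblast markers differed by 0.06 in the same cells, and the type VI chains lay between -0.34 for Col6a3 and 0.10 for Col6a1. In cluster 14, with 218 and 118 shallow cells (medians of 1739 and 1693 UMIs), 8 of the 10 chains were past 1.5-fold lower and none higher, where 15.1% and 22.1% of genes were. There the fibroblast markers were also lower, by a log2 ratio of -0.38, and the summed chains were at 16492 and 7514 CPM. The part of depth in clusters 7, 8 and 9, and of the marker difference in cluster 14, was not tested.

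Cluster 25 went the other way. Col1a1 was at 509 CPM in the 17 cells under the control label and 2869 CPM in the 226 under the cKO label, a log2 ratio of 2.48, Col3a1 at 581 and 1966 CPM (1.75), and Col1a2 at 635 and 1951 CPM (1.61). All of the type VI chains were past 1.5-fold higher as well, with log2 ratios of 0.61 for Col6a3, 0.79 for Col6a1 and 1.01 for Col6a2. Thus 8 chains were past 1.5-fold higher and none lower, where 21.7% and 13.2% of genes were, and the control side rests on 17 cells. Col14a1, counted among the 8, was nearly missing, at 2 UMIs (7.22 CPM) and 110 UMIs (24.0 CPM). Its log2 ratio of 1.24 had an interval that includes no difference (-0.16 to 4.79). The fibroblast markers were lower in this cluster by a log2 ratio of -0.66. Over the 4 shared clusters, Col3a1 and Col5a1 were lower in 4 of 4. Col1a1, Col1a2, Col5a2, Col5a3, Col6a2 and Col6a3 were lower in 3, Col6a1 in 2, and Col14a1 was higher in 3. By the counting intervals, Col5a1 lay below 0 in 3 clusters, and Col5a2, Col6a2 and Col6a3 in 2.

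**Figure D3:**
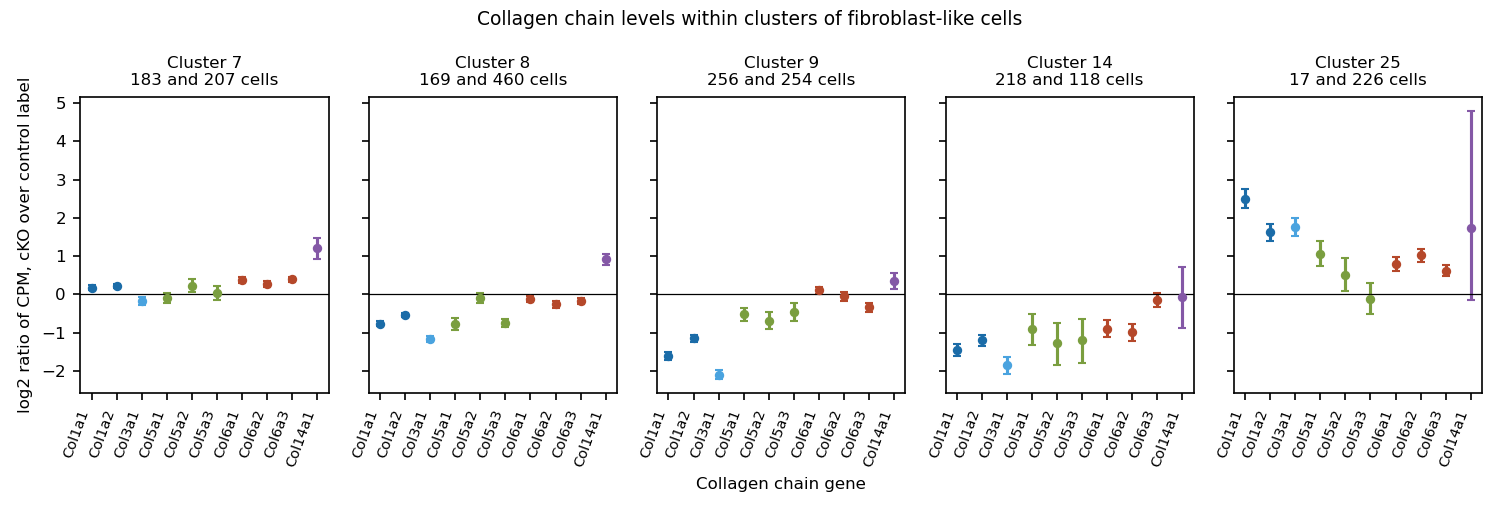
Log2 ratio of CPM, library labelled cKO over library labelled control, for each chain in fibroblast-like clusters 7, 8, 9, 14 and 25, with the cells of each library in the panel titles. Points are plain ratios without the 5 CPM added in the text, bars are 95% counting intervals and colours mark the collagen type. Col1a1 and Col3a1 lie below 0 in clusters 8, 9 and 14 and above 0 in cluster 25.

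Collagen RNA was spread unevenly over single cells. The share of a fibroblast-like cell's UMIs given to the 10 chains had a 10th percentile of 0.0724%, a median of 0.372% and a 90th percentile of 2.85% under the control label, and 0.105%, 0.419% and 1.77% under the cKO label. The median cell was therefore slightly higher and the upper tail lower under the cKO label. Cells giving 1% or more of their UMIs to these chains, a limit set after the values were seen, numbered 249 (29.3%) and 304 (22.7%), and held 71.1% and 66.7% of the class's collagen chain UMIs. Between 0.8% and 1.2% lay 58 and 143 cells. These cells were shallow under the control label, with a median of 3300.0 UMIs against 11496 in its other fibroblast-like cells, but not under the cKO label, with 12200.0 against 9656.5. Of the 249 and 304 cells, 120 and 27 lay in cluster 14, whose median depths were 1739 and 1693 UMIs.

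The upper tail differed by cluster. In cluster 8 the medians were 0.169% and 0.230% of a cell's UMIs while the 90th percentiles were 1.86% and 0.765%. In cluster 9 the medians were 0.231% and 0.270% and the 90th percentiles 2.36% and 1.16%. In both, the typical cell under the cKO label was slightly higher and its most collagen-rich cells were lower. Cluster 7 differed less, with medians of 0.447% and 0.553% and 90th percentiles of 2.22% and 1.87%. In cluster 25, 11.8% and 55.8% of cells gave 1% or more to these chains. In the shallow cluster 14 it was 55.0% and 22.9% of cells, with medians of 1.28% and 0.407% and 90th percentiles of 4.14% and 1.88%.

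**Figure D4:**
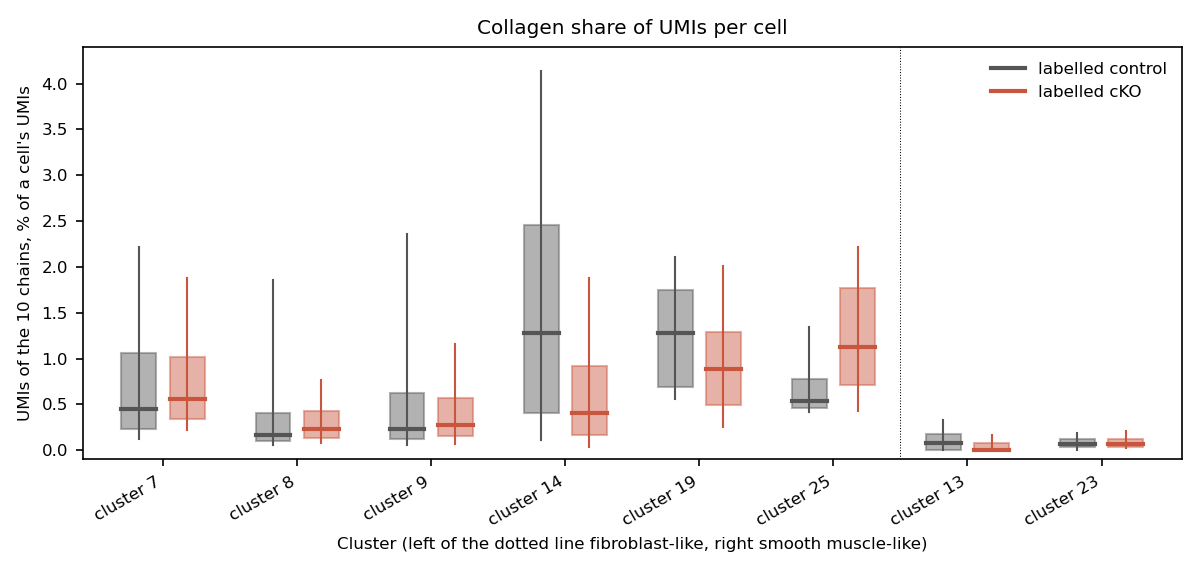
Share of each cell's UMIs that came from the 10 collagen chains (percent), by cluster and library. Boxes span the quartiles, whiskers the 10th to 90th percentiles and lines mark medians. In cluster 9 the medians are 0.231% and 0.270%, while the upper whisker of the library labelled control reaches 2.36% against 1.16%.

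In smooth muscle-like cells, where the title places the loss of Prickle1, the type I and III chains were lower under the cKO label and the others were not past the limit. Col1a2 was at 267 CPM (253 UMIs) under the control label and 130.2 CPM (273 UMIs) under the cKO label, a log2 ratio of -1.01 (-1.29 to -0.78). Col3a1 was at 125 CPM (118 UMIs) and 54.8 CPM (115 UMIs), a log2 ratio of -1.11 (-1.57 to -0.80), and Col1a1 at 98.1 CPM (93 UMIs) and 50.5 CPM (106 UMIs), a log2 ratio of -0.89 (-1.37 to -0.54). Of the 10 chains, 8 reached a mean of 10 CPM, and 3 of those were past 1.5-fold lower and none higher, where 7.36% of the 8169 genes measured were lower and 18.0% higher. The median over the 8 was -0.22, and that over all measured genes was 0.20.

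The type V and VI chains that were measured stayed within 1.5-fold between the libraries. Col5a2 was at 109.7 CPM in both (104 and 230 UMIs), and Col5a1 at 69.6 and 85.4 CPM, a log2 ratio of 0.28 (-0.12 to 0.72). Col6a3, the most abundant type VI chain here, was at 195 and 169 CPM, a log2 ratio of -0.20 (-0.47 to 0.06), and Col6a1 was at 134 and 125 CPM, a log2 ratio of -0.09. Col6a2 was at 109.7 and 92.5 CPM, a log2 ratio of -0.23. For all 5 of these chains the counting intervals include no difference. Col5a2 was the least settled, at -0.71 with cells thinned to 1000 UMIs, -0.50 as a mean within clusters and 0.72 in cells without a fibroblast-marker UMI, and Col6a2 was at -0.62 thinned and 0.20 in cells of at least 2000 UMIs. Col5a1 was at -0.17 as a mean within clusters and 0.69 without a fibroblast-marker UMI, and Col6a1 was at -0.60 in the latter cells. Col5a3 had 4 and 3 UMIs and Col14a1 2 and 3, too few for a ratio. In the library labelled cKO Col6a3 was the most abundant of the 10 in smooth muscle-like cells, where Col1a2 had been under the control label.

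The share of smooth muscle-like cells with a UMI gave the same order. Col1a2 was found in 39.4% and 21.8% of cells, Col3a1 in 23.2% and 11.0% and Col1a1 in 14.6% and 5.43%. Thinned to 1000 UMIs, the shares were 21.6% and 9.97%, 12.4% and 4.11%, and 7.62% and 2.49%. Of the type VI chains, Col6a1 was then found in 11.1% and 9.38%, Col6a2 in 11.4% and 7.77% and Col6a3 in 16.2% and 13.3%. Of the type V chains, Col5a1 was then found in 5.40% and 5.57% and Col5a2 in 10.2% and 6.60%. These cells were shallow, with medians of 1899 and 2003.5 UMIs.

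Several other measures moved with these values. All of the 6 smooth muscle markers were found, with summed levels of 7452 CPM under the control label and 4602 CPM under the cKO label. The 7 fibroblast markers, also all found, summed to 1155 and 891 CPM against 1259 and 2124 CPM in empty droplets, and of the 6 pericyte markers 5 were found, at 57.0 and 52.0 CPM, with Higd1b at 0. Erythroid markers summed to 48.5 and 901 CPM. An estimate of the free-RNA part of the summed chains was 0.903% and 4.93%. Cells without any fibroblast-marker UMI, a split added after the data were seen, numbered 80 and 227 and held 701 and 584 CPM of the 10 chains, against 1214 and 906 CPM in the cells with one. Of the smooth muscle-like collagen chain UMIs, 41.9% lay in 25 of 315 cells and 30.6% in 29 of 682. The part of other cells' RNA and of the lower smooth muscle markers in the ratios was not tested.

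The 2 smooth muscle-like clusters differed from each other. In cluster 13 (226 and 350 cells, medians of 1556 and 1347 UMIs) the summed level was 1349 and 659 CPM, a log2 ratio of -1.03 (-1.23 to -0.85). There 7 of 8 measured chains were past 1.5-fold lower, all but Col1a1 at -0.51, where 14.5% of genes were lower and 22.6% higher. Col1a1 was found in 10.2% and 2% of these cells, so its 53 and 47 UMIs came from few cells under the cKO label. The fibroblast markers were lower by a log2 ratio of -0.44. In the deeper cluster 23 (89 and 332 cells, medians of 5309 and 3955 UMIs) the summed level was 910.2 and 880.4 CPM, a log2 ratio of -0.05 (-0.20 to 0.11), and the fibroblast markers differed by -0.06. The types parted there: Col1a1 (-0.94), Col3a1 (-0.75) and Col1a2 (-0.65) were past 1.5-fold lower and Col6a2 (0.71) past it higher, where 6.45% and 19.2% of genes were. Col5a2 (0.43), Col6a1 (0.31) and Col5a1 (0.30) were on the higher side without passing.

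The balance between fibril-building and filament-forming chains gave a measure within each cell group that does not depend on the total. The ratio of type I and III UMIs to type VI UMIs was 1.77 in fibroblast-like cells under the control label and 1.18 in those under the cKO label, a log2 change of -0.59 (-0.62 to -0.56). In smooth muscle-like cells it was 1.12 and 0.608, a log2 change of -0.87 (-1.12 to -0.62). The balance thus lay further toward type VI in both classes under the cKO label. Among the shared fibroblast-like clusters the log2 change was -0.22 in cluster 7, -0.55 in cluster 8, -1.44 in cluster 9 and -0.77 in cluster 14. In the clusters found mostly under the cKO label it went the other way, from 0.495 to 1.13 in cluster 25 and from 1.57 to 2.23 in cluster 19. In smooth muscle-like cluster 23 it was 1.03 and 0.506, a log2 change of -1.03, and in cluster 13 it was 1.18 and 1.01, a log2 change of -0.22 (-0.62 to 0.18) that includes no change.

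**Figure D5:**
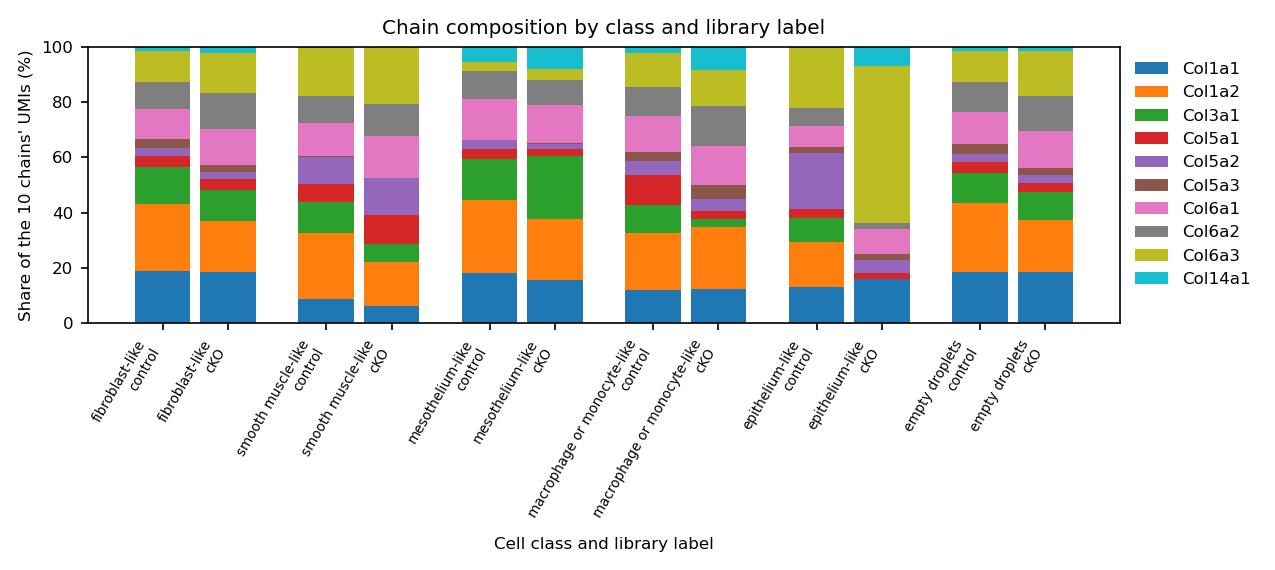
Share of each chain in the UMIs of the 10 collagen chains (percent, stacked to the total), by cell class and library. In fibroblast-like cells Col1a2 takes 24.4% under the control label and 18.7% under the cKO label, and Col6a2 9.69% and 13.0%, while the cKO bar of epithelium-like cells rests on 44 UMIs.

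Mesothelium-like cells, the lining of the outer uterine surface, had a balance of 2.11 and 2.25, a log2 change of 0.09 (-0.18 to 0.36). Only 82 and 31 cells stood behind it, and 1 of the 82 held 19.7% of the class's chain UMIs under the control label. Col3a1 was at 221 and 398 CPM there and Col14a1 at 79.0 and 135.7 CPM, both higher under the cKO label. The fibroblast markers were higher there too, at 9649 and 12582 CPM (log2 ratio 0.38), and their part was not tested. In fibroblast-like cells the same markers were at 9907 and 9161 CPM, so the mesothelium-like cells carried them at a similar or higher level. Col1a1 (268 and 271 CPM) and Col1a2 (397 and 386 CPM) were nearly level. Col6a3 was low beside the other type VI chains, with 0.22 and 0.29 UMIs for each Col6a1 UMI.

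Chains of one collagen did not keep a fixed ratio. Fibroblast-like cells had 0.774 Col1a1 UMIs per Col1a2 UMI (0.757 to 0.792) under the control label and 0.989 (0.971 to 1.01) under the cKO label. By cluster the ratio was 0.838 and 0.818 in cluster 7, 0.650 and 0.556 in cluster 8, 0.795 and 0.578 in cluster 9, and 0.801 and 1.47 in cluster 25. In cluster 7 the counting intervals overlapped (0.804 to 0.872 and 0.785 to 0.852). In clusters 8 (0.621 to 0.680 and 0.534 to 0.579) and 9 (0.762 to 0.830 and 0.532 to 0.629) the ratio was lower under the cKO label, and in cluster 25 (0.637 to 1.01 and 1.43 to 1.51) it was higher. Smooth muscle-like cells had 0.368 (0.287 to 0.468) and 0.388 (0.307 to 0.488), below fibroblast-like and mesothelium-like cells. For type V, the ratio of Col5a1 to Col5a2 was 1.40 and 1.47 in fibroblast-like cells and 0.635 and 0.778 in smooth muscle-like cells. In cluster 8 it was 0.867 (0.777 to 0.967) and 0.544 (0.496 to 0.597), so that Col5a2 led Col5a1 there as in smooth muscle-like cells. For type VI, Col6a1 to Col6a2 was 1.12 and 1.01 in fibroblast-like cells and 1.22 and 1.36 in smooth muscle-like cells.

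The genes whose pattern was most like the summed chains over 28 groups of class and library, among 8861 genes, were Sparc (Pearson r 0.97), Lum (0.95), Has1 (0.93), Serpinh1 (0.92) and Fjx1 (0.92). The 10 chains themselves ran from 0.76 for Col5a3 to 0.99 for Col6a1, but each is part of the sum it was compared with. Lum was 1 of the 7 fibroblast markers, and the groups share libraries and depth. Across fibroblast-like cells the correlation of Col1a1 with Col1a2 was 0.80 under the control label and 0.64 under the cKO label, and that of Col1a1 with Col3a1 was 0.74 and 0.55. Col6a1 with Col6a2 gave 0.55 and 0.41, and Col14a1 with Col1a1 0.25 and 0.02. These are descriptions across cells, which share library, depth and class.

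Over all fibroblast-like cells, cluster 25 included, the helpers of collagen folding lay mostly higher under the cKO label. The part of the differing clusters in this was not tested, and no values are given for the shared clusters alone. Of 21 genes on that list 19 were measured, with 4 past 1.5-fold higher and none lower, where 5.08% and 2.46% of all genes were, and a median log2 ratio of 0.31 against 0.09 over all genes. Serpinh1, the collagen-specific chaperone, was at 1119 and 1946 CPM (0.79), and Sec23a, a coat protein of the vesicles that export procollagen, at 25.5 and 67.3 CPM with a log2 ratio of 1.24. The other 2 were P3h1 (0.68), a prolyl 3-hydroxylase, and Plod1, a lysyl hydroxylase, at 61.7 and 98.6 CPM (0.63). The lowest were P3h3 (-0.17) and P4ha2 (-0.13). Of 13 processing and cross-linking genes 7 were measured and none passed, from Pcolce, an enhancer of procollagen cleavage, at -0.53 and Adamts2, which trims procollagen ends, at -0.42 to the cross-linking enzymes Lox at 0.27 and Loxl2 at 0.37.

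Other collagens and the receptors gave few calls in fibroblast-like cells, where 5.08% of all genes were past 1.5-fold higher. Of the other fibrillar chains 1 of 5 was measured, Col27a1 at 0.10. Of 11 other fibril-associated and type VI chains 4 were measured, and Col6a6, an alternative partner of Col6a1 and Col6a2, was past 1.5-fold higher at 7.43 and 19.6 CPM (0.99), beside Col6a4 at 0.40, Col16a1 at 0.09 and Col12a1 at -0.01. Of 12 receptors and uptake genes 8 were measured and none passed, with a median of -0.26 and with the uptake receptor Mrc2 at -0.51, Ddr1 at -0.38, Ddr2 at 0.10 and Itga2 at 0.07. Of 12 regulators 10 were measured and 3 were past 1.5-fold higher, the growth factor Tgfb1 (0.59), Ccn2 (0.73), a matrix-inducing secreted protein, and the transcription factor Runx2 (0.69). Tgfb2 was at -0.54 and Smad3, which relays TGF-β signals, at -0.21. As for the folding genes, these values are over the whole class, and the part of its differing clusters was not tested.

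In smooth muscle-like cells, where 18.0% of all genes were past 1.5-fold higher and 7.36% lower, the same lists were mixed. Of 21 folding genes 18 were measured, 2 past 1.5-fold higher, Crtap (0.71) and Plod3 (0.65), and 2 lower, P3h1 (-0.96, from 15 and 12 UMIs) and Ppib (-0.73), a prolyl isomerase in the same complex as P3h1 and Crtap. Of the 5 processing genes measured none passed, from Loxl2 at -0.38 and Loxl1 at -0.31 to Bmp1 at -0.21 and Adamts2 at 0.15. Among 9 receptors the collagen receptor Ddr2 (0.85) and Mrc2 (0.78) were past 1.5-fold higher, the latter from 8 and 38 UMIs with an interval that includes no difference (-0.020 to 2.41), and the lowest were Cspg4 at -0.41 and Antxr2 at -0.13. Among 8 regulators Tgfb1 was past it lower (-0.82), opposite to its direction in fibroblast-like cells, Ccn2 was at -0.35, and the highest were the receptor gene Tgfbr1 at 0.31 and the inhibitor Smad7 at 0.26. The 2 other fibril-associated chains measured were Col12a1 at -0.25 and Col16a1 at 0.057. Whether these classes differ was not tested.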

How the data were processed

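The authors deposited raw gene by barcode matrices of UMI counts, whole numbers with no normalization, for 2 libraries. Cell Ranger 6.1.1 and mm10 are named per the submitters' processing notes, and which reads were dropped is not given in the sources used here. Counts of cells passing the filters were summed by library and by class or cluster and scaled to 1000000 UMIs of the group. Cells were clustered with scanpy 1.11.5 (2000 variable genes without collagen genes or the listed genes, 30 components, 15 neighbours, Leiden resolution 1.0) in Python 3.11.15, and named from marker lists. Scrublet's automatic threshold marked 4 of 7076 cells (0.0565%), which is too few to have worked, so no doublets were removed. Cluster 22 (26 and 28 cells, with markers of several classes and high depth) was set aside by a limit set after the values were seen and held 1.78% and 1.26% of the collagen chain UMIs. A difference is the log2 ratio of CPM plus 5, for genes with a mean of at least 10 CPM, and past the fold means 1.5-fold. Intervals are exact at 95% (Poisson, Clopper-Pearson or conditional), except those of the balance of type I and III to type VI chains. Those are approximate 95% intervals, symmetric on the log2 scale. The free-RNA share is the level of another class's markers over their level in empty droplets. The lowest such share in each library was used, so the free-RNA levels and percentages given are the lowest that these markers gave. They are not lower bounds in every class. Under the cKO label the estimate of 40.4 CPM exceeded the 30.3, 32.7 and 20.2 CPM counted in T or NK cell-like, epithelium-like and cluster 15 cells. Genes of the lists are named if among the 2 highest or 2 lowest ratios of their list in either class, the others past the fold (Plod1, P3h1, Tgfb1 in fibroblast-like cells) were named after their values were seen, and the genes most like the chains are the 5 highest in correlation. The chains and the lists were chosen with earlier results of these data known. Alternatives covered scaling by median of ratios, depth and mitochondrial limits, cluster resolution, doublets, free RNA, thinning to 1000 UMIs and the clusters included. The script was tested on simulated data.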

Additional observations from a re-analysis of the deposited data

Results flagged for a closer look

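The summed collagen chains moved in opposite directions between groups of cells in 7 pairs, each read off 1 library per label. The difference was not tested in any of them. Fibroblast-like cluster 7, with a higher level in the library labelled cKO, was apart from cluster 8 by 0.68 on the log2 scale, from cluster 9 by 1.07 and from cluster 14 by 1.36. Dendritic cell-like cells (log2 ratio 1.72) were apart from T or NK cell-like cells (-1.74) by 3.47 and from smooth muscle-like cells by 2.16. Macrophage-like cells (0.39) were apart from T or NK cell-like cells by 2.13 and from smooth muscle-like cells by 0.83. In the dendritic cell-like and macrophage-like cells of both libraries, and in the T or NK cell-like cells under the control label (2 cells with 70 of 78 UMIs), a few cells held most of the collagen chain UMIs, and their part in these values was not tested. Under the cKO label the T or NK cell-like level (30.3 CPM) lay below the 40.4 CPM estimated for free RNA.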

How the results depend on the processing

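Among all fibroblast-like cells the sign of the summed ratio (0.08) depended on scaling, on how cells were weighted and on which clusters were included. It was -0.0026 with median-of-ratios scaling, 0.14 at 2000 UMIs, 0.13 at 10% mitochondrial UMIs, 0.11 at resolution 2.0, -0.62 with thinned cells, -0.48 without clusters over 90% from 1 library, and -0.55 as a mean within clusters. The median over the chains (0.04) was -0.039 with that scaling, 0.088 at 2000 UMIs, 0.082 at 10% mitochondrial UMIs, -0.42 thinned, -0.29 without one-library clusters and -0.44 within clusters. Leaving out a shared cluster, an alternative added after seeing the data, gave sums of 0.051 (cluster 7), 0.31 (8), 0.16 (9) and 0.18 (14), and medians of 0.093, 0.22, 0.17 and 0.14. Chains past 1.5-fold lower numbered 4 with thinning and 3 without one-library clusters (0 otherwise), and higher 1 without those clusters, 2 without cluster 7, 2 without cluster 8 and 1 without cluster 14. Without one-library clusters 2.42% of all genes were past it lower and 2.76% higher. No such share is given for thinning or for leaving out a shared cluster, so those counts have no background to be read against. Col1a1 reversed to -0.037 (scaling), -0.88 (thinned), -0.79 (without one-library clusters) and -0.91 (mean within clusters), and in the last 3 Col6a1 went to -0.18, -0.073 and -0.13, Col6a2 to -0.24, -0.21 and -0.26, and Col6a3 to -0.021, -0.13 and -0.067. Col3a1 turned to 0.14 without cluster 8 and 0.15 without cluster 9, and Col14a1 to -0.19 without cluster 8. The cause was not tested. In smooth muscle-like cells the sum (-0.44) was -0.63 with median-of-ratios scaling, -0.30 at 2000 UMIs, -0.77 thinned and -0.26 in cells without a fibroblast-marker UMI, the median was -0.67 thinned, and thinning put 5 chains past 1.5-fold lower, while cells without fibroblast markers gave 2 higher. Neither count has a share of all genes to be read against. Col1a1, Col1a2 and Col3a1 stayed lower there in each alternative run (-1.31 to -0.73, -1.31 to -0.47 and -1.59 to -0.93). Median-of-ratios scaling moved the median of all genes from 0.09 to 0.02 in fibroblast-like and from 0.20 to 0.03 in smooth muscle-like cells. The fibroblast-like share of collagen UMIs was 91.0% (10% mitochondrial), 95.0% (resolution 0.5), 90.7% (resolution 2.0), 96.0% (doublets removed) and 93.5% (free RNA subtracted) in the library labelled control, and 95.7% (2000 UMIs), 95.1%, 96.6%, 94.9%, 97.5% and 95.6% in the library labelled cKO. No paired analysis was possible because each group is 1 library.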
